A study of Mus musculus with 25 samples.

Results

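Kinesins are motor proteins that hydrolyse ATP and step along microtubules, and the kinesin genes were read here in mouse oocytes and early embryos cultured with a small molecule labelled VCD or with PBS. The members were the protein-coding mouse genes whose symbol is Kif followed by a number and an optional letter, or starts with Kifc. Of 35561 genes listed in either of the 2 deposited expression tables, 41 were kinesins. Of these, 40 were in both tables and Kif2b was listed for embryos only. The annotation has 42 such genes, and Kif12 was not analysed here.

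In a dividing cell, kinesins build the bipolar spindle, trim microtubule ends, push chromosome arms and, at the end of division, bundle the midzone and guide cytokinesis. Other kinesins carry vesicles, organelles and RNA, or build and run cilia. An oocyte assembles its meiotic spindle without centrioles, and mouse embryos cleave without them as well through the first divisions, so motors that sort and focus microtubules have long been studied there. RNA in the oocyte is stored from the growth phase, and the 2-cell embryo is the stage at which mouse embryos degrade much of it and start broad transcription of their own.

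All groups were strain C57BL/6. Oocytes were matured in culture for 16 h in M16 medium and taken at metaphase II (MII) with VCD (n = 5 libraries) or PBS (n = 4), and embryos from in vitro fertilization of 6 h were cultured in G1 medium, with a move to G2 before morulae form, and taken as 2-cell embryos with VCD (n = 4) or PBS (n = 4) and as morulae with VCD (n = 4) or PBS (n = 4). The agent was in the culture media, but neither its full name nor its dose was stated. How many cells or embryos went into each of the 25 Smart-seq2 libraries was not stated either. Since no label gives the animals or cultures behind the replicates, the p-values here rest on the spread among libraries, which may be technical. The change of medium falls between the 2-cell embryo and the morula, so stage, time in culture and medium cannot be told apart.

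Values are FPKM, fragments counted per gene relative to its transcript length and to the depth of the library, so levels of different genes can be set side by side. The steps of the FPKM values implied 15075836 to 20998265 counted reads or fragments per library. The oocyte and embryo tables were made separately, so levels in oocytes are placed beside those in embryos without a test. The highest gene of each stage's marker list stood with its label. Gdf9, an oocyte growth factor, averaged 3281 FPKM in MII oocytes with VCD and 3363 with PBS. Zfp352, a gene of the 2-cell embryo, averaged 464 FPKM in 2-cell embryos with VCD and 448 with PBS. Krt18, a keratin of the outer cells, averaged 116 FPKM in morulae with VCD and 91.7 with PBS. The lists were not confined to their stages. The oocyte list summed to 1468 to 1975 FPKM in 2-cell embryos with VCD and 1539 to 2056 with PBS. In MII oocytes the 2-cell list summed to 23.6 to 28.7 FPKM with VCD and 19.5 to 24.9 with PBS, mostly Tcstv3. Sox2, another gene of the morula list, was at 0 in every PBS morula. Of the 9 markers of cumulus and granulosa cells, which surround the oocyte, 8 were in the oocyte table and their sum was 10.9 to 13.4 FPKM in MII oocytes with VCD and 11.8 to 14.05 with PBS, mostly Cyp19a1. In bulk libraries fewer cells of a type and less RNA per cell cannot be told apart.

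Kinesin transcripts covered a wide range of levels. Of the 41 genes, 20 averaged 5 FPKM or more in at least 1 of the 6 groups, 9 peaked between 1 and 5 FPKM, and 12 stayed below 1 FPKM in every group mean. The 12 were Kif1a, Kif1c, Kif13a, Kif26a, Kif26b, Kif5a, Kif6, Kif7, Kif19a, Kif21b, Kif28 and Kif2b, among them the neuronal motors Kif1a and Kif5a and the hedgehog regulator Kif7, and their highest group mean was 0.576 FPKM. Of the 28 kinesins that reached 1 FPKM in enough libraries to be tested in embryos together, the highest mean among PBS groups was in MII oocytes for 8, in 2-cell embryos for 11 and in morulae for 9. These are orders of means across 2 separately made tables, and some are close. With PBS, MII and 2-cell libraries overlapped for Kif14, Kif18a, Kif1b, Kif21a, Kif24 and Kif5c, which were highest in either of these stages. They also overlapped for Kif15, Kif22, Kif5b and Kifc5b, which were highest in morulae. Kif20a averaged 121 ± 3.42 FPKM in PBS oocytes and 114 ± 32.7 in PBS morulae. With VCD the highest stage was the same for 27 of the 28, the exception being Kif24, whose means were 2.19 ± 0.216 in MII oocytes and 1.90 ± 0.113 FPKM in 2-cell embryos.

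**Figure D1:**
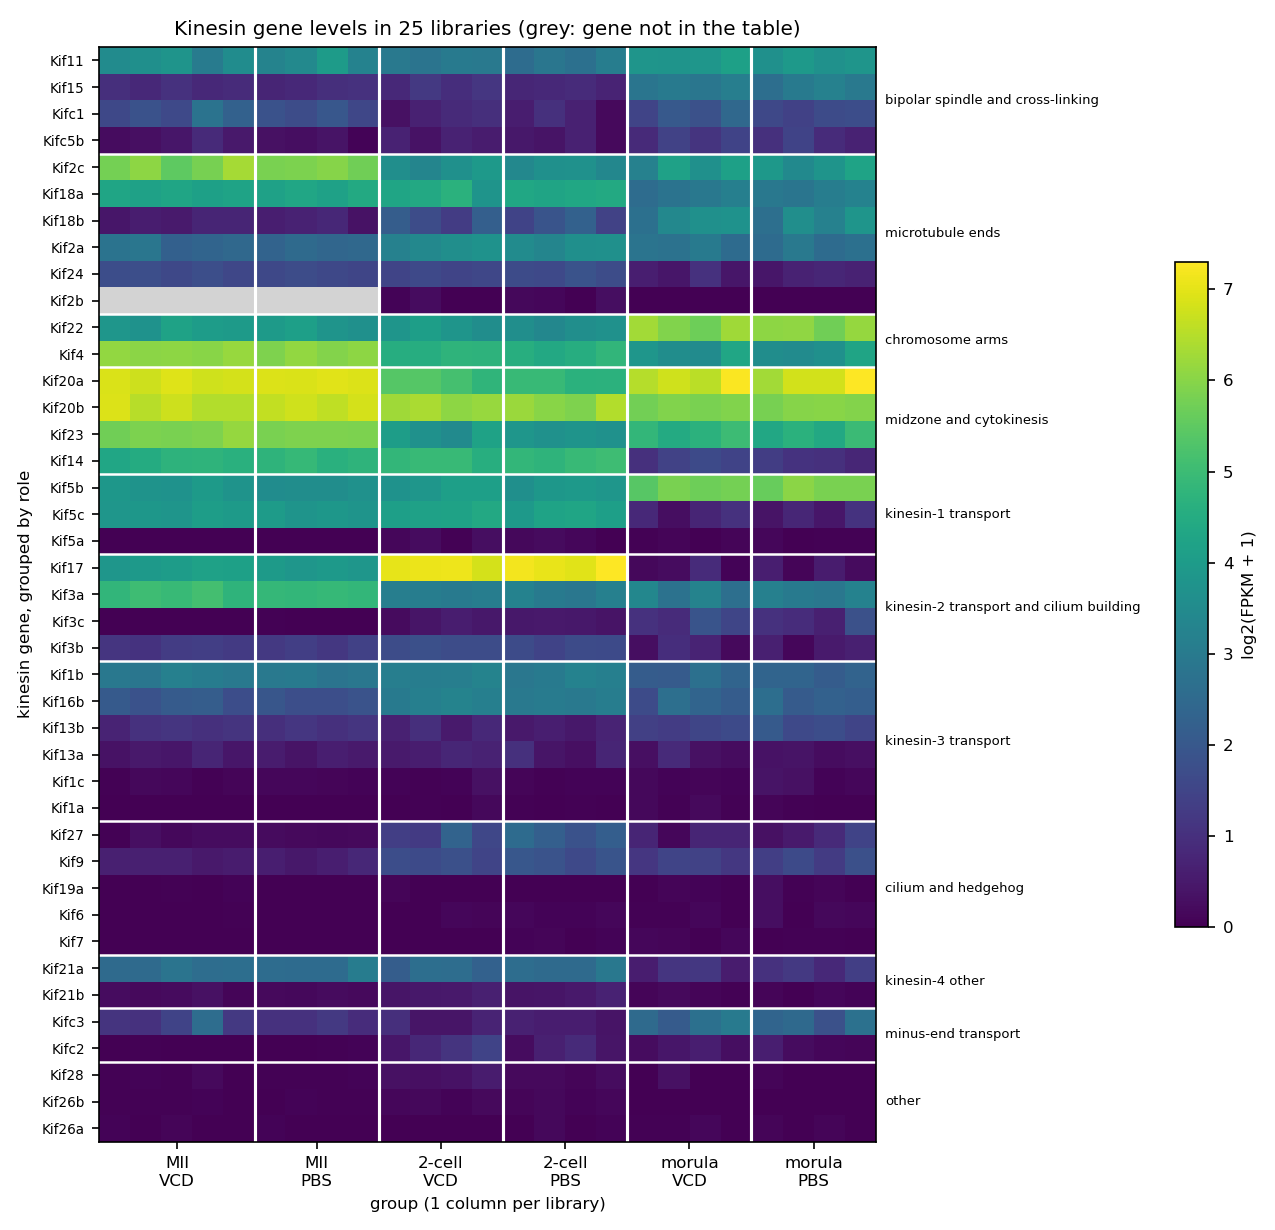
Each column is 1 library and each line 1 kinesin gene, with the colour giving log2(FPKM + 1) and genes grouped by role; within each stage the VCD libraries stand left of the PBS libraries. Kif17 is brightest in the 2-cell columns, Kif20a in the MII and morula columns, and the VCD and PBS blocks of a stage look alike.

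The make-up of the kinesin transcripts differed between stages. The summed FPKM of all kinesins was 567 ± 14.4 in MII oocytes with VCD and 568 ± 11.8 with PBS, 443 ± 17.5 in 2-cell embryos with VCD and 434 ± 31.4 with PBS, and 416 ± 54.3 in morulae with VCD and 419.7 ± 57.3 with PBS (SD, n = 5 for MII with VCD and n = 4 otherwise). The 16 genes of the 4 division roles (spindle cross-linking, microtubule ends, chromosome arms, midzone and cytokinesis) took 83.5% of that sum in MII oocytes with VCD and 84.8% with PBS. Their share was 54.7% in 2-cell embryos with VCD and 52.02% with PBS, and 80.7% in morulae with VCD and 79.4% with PBS. The dip in 2-cell embryos lay beside a large kinesin-2 share, most of it Kif17: kinesin-2 took 31.5% in 2-cell embryos with VCD and 34.4% with PBS, against 2.41% in morulae with VCD and 2.27% with PBS. In MII oocytes the kinesin-2 share was 8.19% with VCD and 7.62% with PBS.

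**Figure D2:**
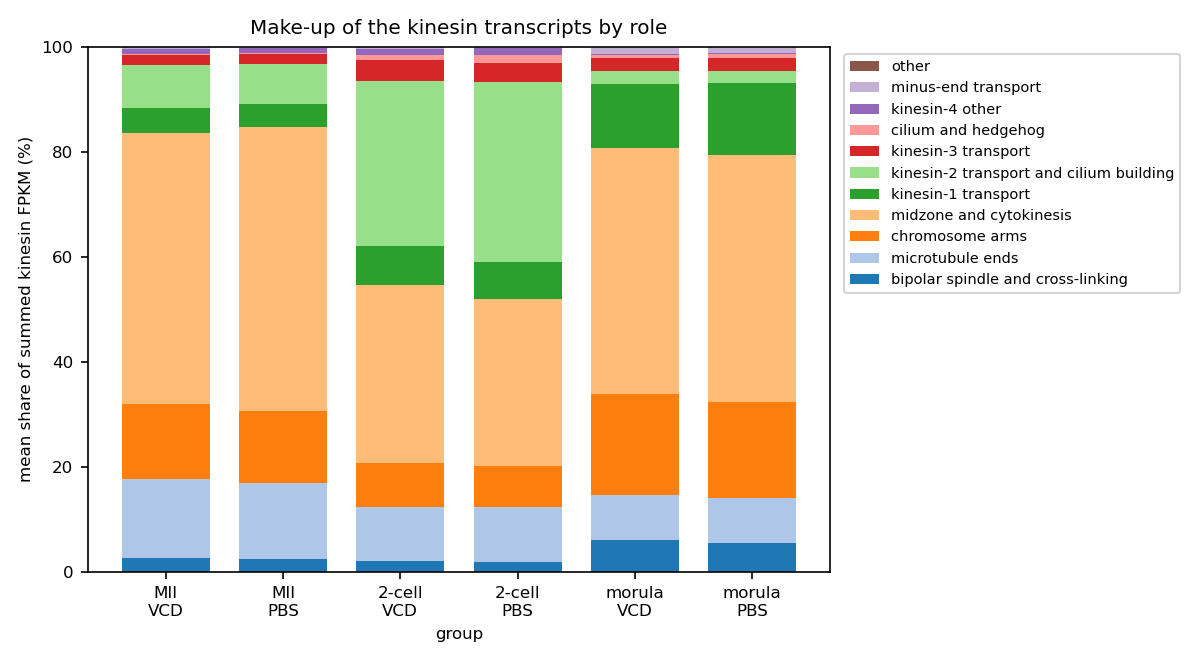
Bars give the mean share of the summed kinesin FPKM taken by each role in the 6 groups (n = 5 libraries for MII oocytes with VCD, n = 4 for the others). The kinesin-2 block is widest in 2-cell embryos, at 31.5% with VCD and 34.4% with PBS, and the kinesin-1 block in morulae, at 12.3% with VCD and 13.6% with PBS.

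Motors with a reported role in mouse oocyte meiosis and motors known mainly from mitosis were both present at every stage. The 9 genes of the meiosis list (Kif2a, Kif2c, Kif4, Kif5b, Kif11, Kif17, Kif18a, Kif20a and Kifc1) took 53.6% of the kinesin sum in MII oocytes with VCD and 53.2% with PBS, 56.8% in 2-cell embryos with VCD and 57.7% with PBS, and 51.9% in morulae with VCD and 53.1% with PBS. In 2-cell embryos Kif17 alone made up 129.7 of the list's 252 FPKM with VCD and 139 of its 250.02 FPKM with PBS, and in morulae it was near 0. The 7 genes of the mitosis list (Kif2b, Kif14, Kif15, Kif18b, Kif20b, Kif22 and Kif23) took 34.5% in MII oocytes with VCD and 35.7% with PBS, 29.9% in 2-cell embryos with VCD and 28.9% with PBS, and 40.5% in morulae with VCD and 39.5% with PBS. Of the meiosis list, 9 were tested between 2-cell embryos and morulae, and 4 were called higher and 4 lower in morulae in either agent. Of the mitosis list 6 were tested, with 4 higher and 1 lower with PBS and 4 higher and 2 lower with VCD. Over all genes 42.7% were higher and 45.0% lower with PBS, and 41.0% and 43.9% with VCD. No set test was run, and the members are described below by role.

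The most abundant kinesins of MII oocytes were midzone motors. Kif20a, which brings Aurora B to the central spindle, had 117, 106, 123, 109 and 112 FPKM in the 5 libraries with VCD and 119, 117, 125 and 121 FPKM in the 4 with PBS. Kif20b, a motor of late cytokinesis, followed with 119, 90.5, 107, 86.3 and 86.7 FPKM with VCD and 97.6, 109, 95.7 and 112 FPKM with PBS. With PBS every library held more Kif20a than any held Kif20b, whereas with VCD the values of the pair overlapped. Next in the PBS order came Kif4, a chromosome-arm motor, then Kif23, the motor of the centralspindlin complex, and Kif2c, a depolymerase of microtubule ends at centromeres, with PBS means of 63.7 ± 4.83, 57.5 ± 1.24 and 56.8 ± 3.98 FPKM (SD, n = 4). The libraries overlapped between Kif4 and Kif23 and between Kif23 and Kif2c.

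In PBS 2-cell embryos the order was Kif17, Kif20b, Kif14, Kif20a, Kif4 and Kif18a, with means of 139 ± 14.05, 70.1 ± 12.6, 28.6 ± 2.44, 27.1 ± 2.68, 23.1 ± 2.90 and 19.4 ± 1.03 FPKM. Kif17 and Kif20b each stood clear of the next gene in every library, and from Kif14 on each gene overlapped with its neighbour. In PBS morulae it was Kif20a, Kif22, Kif20b, Kif5b, Kif23 and Kif2c, with means of 114 ± 32.7, 63.6 ± 7.89, 60.2 ± 3.65, 56.2 ± 6.66, 23.7 ± 4.92 and 13.6 ± 3.24 FPKM. Kif20a stood clear of Kif22, Kif5b of Kif23 and Kif23 of Kif2c, whereas Kif22, Kif20b and Kif5b overlapped in turn.

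Several of the kinesins abundant in MII oocytes were listed lower in 2-cell embryos. Kif2c had 11.1, 8.94, 11.8 and 14.6 FPKM in 2-cell embryos with VCD and 9.72, 11.6, 11.99 and 9.51 FPKM with PBS, against 53.4, 65.9, 43.6, 54.8 and 78.9 FPKM in MII oocytes with VCD and 56.4, 57.6, 61.5 and 51.9 FPKM with PBS. Kif23 had 15.8, 12.1, 10.3 and 17.6 FPKM in 2-cell embryos with VCD and 13.3, 11.98, 12.8 and 11.96 FPKM with PBS, against 51.2, 57.1, 56.5, 58.95 and 69.3 FPKM in MII oocytes with VCD and 56.0, 58.6, 58.5 and 57.1 FPKM with PBS. For both genes every 2-cell library lay below every oocyte library. The same held for Kif20a, Kif4 and Kif3a, the last a subunit of the heterotrimeric cilium-building kinesin-2, which averaged 7.42 ± 0.383 FPKM in 2-cell embryos with VCD and 7.48 ± 0.958 with PBS, against 29.7 ± 3.36 FPKM in MII oocytes with VCD and 27.9 ± 0.645 with PBS. Kif17 went the other way, at 8.43 times its MII mean in 2-cell embryos with VCD and 10.04 times with PBS. Kif2a, another depolymerase, and Kif16b, a motor of early endosomes, were also listed higher in 2-cell embryos, Kif2a at 2.10 times its MII mean with VCD and 2.41 times with PBS and Kif16b at 2.63 times with VCD and 2.73 times with PBS.

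**Figure D3:**
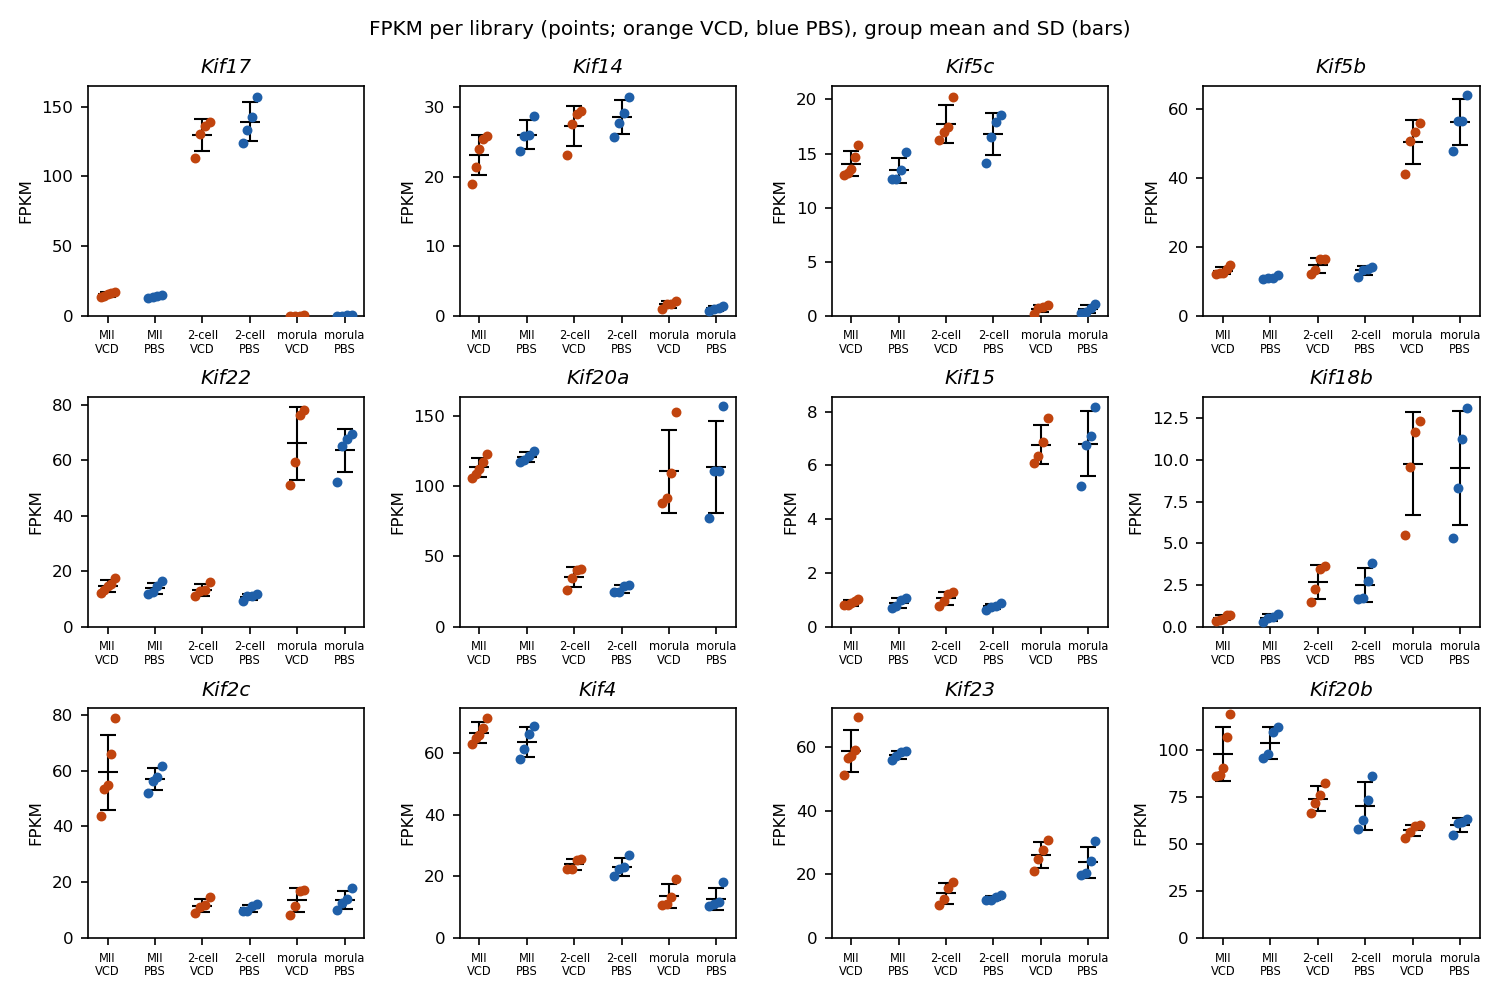
FPKM of 12 kinesins in every library, with orange points for VCD and blue points for PBS and bars for the group mean ± SD; the axes start at 0 and differ between genes. Kif17, Kif14 and Kif5c sit close to 0 in all 8 morula libraries, whereas Kif22, Kif5b, Kif15 and Kif18b are highest there, and within a stage the orange and blue points lie at similar heights.

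Between the 2-cell embryo and the morula most kinesins that could be tested changed, in both directions, as did most genes. In PBS libraries 26 kinesins passed the filter of 1 FPKM or more in at least 4 libraries, and limma called 22 of them, 10 higher and 12 lower in morulae, at a Benjamini-Hochberg adjusted p below 0.05 over the 12517 genes tested. The background was as high, with 87.7% of all genes called, 42.7% higher and 45.0% lower, so the count of kinesins is no result about kinesins. In VCD libraries 26 kinesins were tested and 23 called, 10 higher and 13 lower, where 84.8% of 12355 genes were called, 41.0% higher and 43.9% lower. All 22 kinesins called with PBS were called in the same direction with VCD, which added Kif20b among the lower ones. The median log2 fold change of the 26 tested kinesins was -0.26 with PBS and -0.35 with VCD, beside -0.08 for all genes in either. Scaling by the median of ratios in place of FPKM moved the all-gene median to -0.36 with PBS and -0.33 with VCD, and under it Kif2c turned negative in both agents and Kif3a with PBS. The 15 kinesins that did not pass the filter were the 12 below 1 FPKM and Kif3c, Kifc2 and Kifc5b.

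The 2-cell embryo was marked by Kif17, a kinesin-2 motor that works as a homodimer, carries receptor vesicles in mouse neurons and is also found in mouse male germ cells. Kif17 (GRCm38 chr4:138250435-138301967, plus strand) had 0.114, 0.176, 0.870 and 0.0555 FPKM in morulae with VCD, against 130.5, 136, 139 and 113 FPKM in 2-cell embryos with VCD. With PBS it had 0.520, 0.0633, 0.474 and 0.155 FPKM in morulae and 143, 133, 124 and 157 FPKM in 2-cell embryos. It led the kinesin order in 2-cell embryos and was below 1 FPKM in all 8 morula libraries. The log2 fold change was -6.68 with VCD (SE 0.21, adjusted p = 6.81e-10, limma) and -6.76 with PBS (SE 0.16, adjusted p = 8.80e-11, limma), on the log2(FPKM + 1) scale, which understates changes of genes near 0. On recovered reads limma-voom gave -9.44 with VCD and -9.23 with PBS.

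Among the other kinesin-2 genes, Kif3b was also lower in morulae and Kif3a was not called. Kif3b, which pairs with Kif3a, had 0.206, 0.955, 0.661 and 0.147 FPKM in morulae with VCD and 0.575, 0.0927, 0.442 and 0.573 FPKM with PBS, against 2.24, 2.46, 2.21 and 2.27 FPKM in 2-cell embryos with VCD and 2.18, 1.78, 2.19 and 2.13 FPKM with PBS. It fell in both agents, with log2 fold changes of -1.18 with VCD and -1.12 with PBS. Kif3a did not pass the test, at 9.48, 5.80, 8.55 and 5.39 FPKM in morulae with VCD and 8.10, 6.86, 6.47 and 8.52 FPKM with PBS. Its log2 fold change with PBS was 0.00 with a 95% interval of -0.32 to 0.32, and the sign changed under other scalings. Kif3c, a further subunit known mainly from neurons, reached 1.07, 0.869, 2.72 and 1.86 FPKM in morulae with VCD and 1.05, 0.909, 0.558 and 2.51 FPKM with PBS and was not tested between stages. Of the exon bases of Kif3c, 40.7% are shared with exons of another annotated gene, 1110002L01Rik.

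Of kinesin-1, the conventional motor of organelle transport, Kif5b rose and Kif5c fell. Kif5b had 41.3, 55.9, 50.8 and 53.4 FPKM in morulae with VCD and 47.7, 64.0, 56.6 and 56.5 FPKM with PBS, against 12.2, 13.4, 16.4 and 16.5 FPKM in 2-cell embryos with VCD and 11.4, 13.7, 14.3 and 13.4 FPKM with PBS. Kif5c had 0.778, 0.199, 0.686 and 1.05 FPKM in morulae with VCD and 0.313, 0.739, 0.349 and 1.09 FPKM with PBS, against 16.3, 17.0, 17.5 and 20.2 FPKM in 2-cell embryos with VCD and 14.1, 17.9, 18.6 and 16.6 FPKM with PBS. The stages did not overlap for either gene, and the pair moved in opposite directions. Kif5b rose by a log2 fold change of 1.72 with VCD (SE 0.17, adjusted p = 2.68e-06) and 2.01 with PBS (SE 0.13, adjusted p = 1.05e-07, limma). Kif5c changed by -3.50 with VCD (SE 0.20, adjusted p = 2.97e-08) and -3.47 with PBS (SE 0.18, adjusted p = 1.30e-08, limma). As a share of Kif5b plus Kif5c, Kif5c made up 51.7% ± 1.69 in MII oocytes with VCD and 54.7% ± 2.998 with PBS, and 54.9% ± 2.42 in 2-cell embryos with VCD and 56.0% ± 0.751 with PBS. In morulae it made up 1.37% ± 0.725 with VCD and 1.07% ± 0.594 with PBS. An exact two-sided permutation test of this share between stages gave p = 0.0286 in each agent, the smallest that 4 against 4 libraries allow. After adjustment over 5 comparisons this became 0.0714. The 2 stage comparisons by themselves could not fall below 0.05 after that adjustment, whatever the size of the change, so the test cannot decide. Every morula library lay at 1.93% or less and every 2-cell library at 51.5% or more. Kif5a, the other gene of the family, stayed below 1 FPKM.

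Among the division motors, 14 of 16 were tested, and 7 were higher and 5 lower in PBS morulae, with 7 higher and 6 lower in VCD morulae, where 42.7% of all genes were higher and 45.0% lower with PBS and 41.0% and 43.9% with VCD. Both tested chromosome-arm motors changed, in opposite directions. Kif22, also called Kid, which pushes chromosome arms away from the poles, had 78.0, 59.5, 50.99 and 76.2 FPKM in morulae with VCD and 65.2, 67.6, 52.02 and 69.4 FPKM with PBS, against 12.9, 16.1, 13.1 and 11.1 FPKM in 2-cell embryos with VCD and 11.1, 9.32, 11.1 and 11.9 FPKM with PBS. Kif4 had 13.4, 10.97, 10.6 and 19.1 FPKM in morulae with VCD and 10.9, 10.5, 11.6 and 18.1 FPKM with PBS, against 22.4, 22.4, 25.7 and 25.2 FPKM in 2-cell embryos with VCD and 23.1, 20.1, 22.3 and 27.1 FPKM with PBS. Every morula library lay above every 2-cell library for Kif22 and below it for Kif4. The log2 fold change of Kif22 was 2.22 with VCD (adjusted p = 7.97e-07, limma) and 2.44 with PBS (adjusted p = 2.79e-08, limma), the largest rise of a kinesin on the log2(FPKM + 1) scale. The order depends on the pseudocount: with 0.1 in place of 1, the log2 fold changes were 2.30 for Kif22, 2.58 for Kif15 and 3.02 for Kifc3 with VCD, and 2.53 for Kif22, 2.996 for Kif15 and 2.89 for Kifc3 with PBS. The log2 fold change of Kif4 was -0.81 with VCD (adjusted p = 0.00258, limma) and -0.83 with PBS (adjusted p = 0.00125, limma). Of the exon bases of Kif4, 15.1% also lie in exons of Pdzd11.

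The 3 tested spindle cross-linkers were higher in morulae in both agents, as were 42.7% of all genes with PBS and 41.0% with VCD. Kif15, which helps to hold spindle poles apart, had 6.09, 6.88, 6.36 and 7.76 FPKM in morulae with VCD and 5.22, 7.08, 8.16 and 6.74 FPKM with PBS, against 0.776, 1.31, 0.954 and 1.22 FPKM in 2-cell embryos with VCD and 0.740, 0.783, 0.873 and 0.640 FPKM with PBS. Kif11, also called Eg5, which slides antiparallel microtubules apart, had 12.9, 12.7, 13.2 and 16.7 FPKM in morulae with VCD and 11.8, 14.3, 11.9 and 13.0 FPKM with PBS, against 6.70, 6.07, 7.07 and 6.67 FPKM in 2-cell embryos with VCD and 5.01, 6.32, 5.46 and 7.54 FPKM with PBS. Both rose without overlap of the stages, Kif15 by a log2 fold change of 1.91 with VCD and 2.14 with PBS and Kif11 by 0.96 with VCD and 0.97 with PBS. Kifc1, a minus-end motor that focuses spindle poles, had 1.84, 3.11, 2.53 and 4.53 FPKM in morulae with VCD and 1.98, 1.65, 2.19 and 2.30 FPKM with PBS, against 0.253, 0.593, 0.810 and 0.977 FPKM in 2-cell embryos with VCD and 0.505, 1.007, 0.597 and 0.139 FPKM with PBS. It too was called higher, but 39.7% of its 50-base words also occur in transcripts of another gene, mainly Kifc5b, so its value and that of Kifc5b are uncertain.

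The midzone motors went separate ways. Kif20a had 88.2, 109, 91.7 and 152 FPKM in morulae with VCD and 77.1, 111, 111 and 157 FPKM with PBS, against 40.7, 40.9, 34.4 and 26.2 FPKM in 2-cell embryos with VCD and 29.2, 29.6, 24.5 and 25.01 FPKM with PBS. Kif14, a cytokinesis motor that works with citron kinase, had 1.006, 1.72, 2.10 and 1.76 FPKM in morulae with VCD and 1.49, 1.09, 1.008 and 0.730 FPKM with PBS, against 27.6, 29.5, 29.1 and 23.1 FPKM in 2-cell embryos with VCD and 27.8, 25.7, 29.2 and 31.5 FPKM with PBS. Kif20a rose and Kif14 fell, neither with any overlap of the stages. The log2 fold change of Kif20a was 1.59 with VCD (SE 0.22) and 1.99 with PBS (SE 0.20), and that of Kif14 was -3.43 with VCD (SE 0.18) and -3.84 with PBS (SE 0.15). Kif23 also rose, with 27.6, 21.04, 24.8 and 30.9 FPKM in morulae with VCD and 19.8, 24.2, 20.4 and 30.5 FPKM with PBS. Kif20b had 53.2, 60.1, 56.1 and 59.3 FPKM in morulae with VCD and 54.9, 61.7, 63.1 and 61.2 FPKM with PBS, against 76.1, 82.2, 66.4 and 71.6 FPKM in 2-cell embryos with VCD and 73.5, 62.9, 57.9 and 86.3 FPKM with PBS. It was called lower with VCD (log2 fold change -0.37, limma adjusted p = 0.0296) and not with PBS (-0.20, adjusted p = 0.202), a difference that the interaction test over stages and agents did not call, and under median-of-ratios scaling it was called lower with PBS as well (-0.56, adjusted p = 0.00789). The call with VCD was lost without 2-cell replicate 1 or 2 or morula replicate 1 or 3, with adjusted p of 0.0582 to 0.122. Of the exon bases of Kif20a, 29.3% also lie in exons of Cdc23, and how reads there were assigned was not stated.

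Of the 5 tested motors of microtubule ends, 3 were lower and 1 higher in morulae in either agent, where 45.0% of all genes were lower with PBS and 43.9% with VCD. Kif18a, which damps the swing of chromosomes on the spindle, had 4.96, 5.86, 6.599 and 7.93 FPKM in morulae with VCD and 6.602, 6.18, 7.57 and 8.41 FPKM with PBS, against 18.8, 20.3, 24.1 and 12.9 FPKM in 2-cell embryos with VCD and 19.6, 18.1, 19.3 and 20.6 FPKM with PBS. Kif18b, its relative at the ends of astral microtubules, had 5.48, 9.60, 11.7 and 12.3 FPKM in morulae with VCD and 5.31, 11.3, 8.34 and 13.1 FPKM with PBS, against 3.45, 2.26, 1.47 and 3.63 FPKM in 2-cell embryos with VCD and 1.75, 2.76, 3.81 and 1.69 FPKM with PBS. So one paralog fell and the other rose, by log2 fold changes of -1.43 with VCD and -1.32 with PBS for Kif18a, and of 1.53 with VCD and 1.56 with PBS for Kif18b. Kif2a fell as well, with 6.01, 5.70, 6.85 and 4.92 FPKM in morulae with VCD and 4.86, 6.78, 4.84 and 5.49 FPKM with PBS, against 8.26, 9.67, 11.1 and 12.3 FPKM in 2-cell embryos with VCD and 10.5, 8.93, 11.4 and 11.7 FPKM with PBS, though 19.2% of its exon bases also lie in exons of Dimt1. Kif2c was not called, at 8.203, 17.2, 11.6 and 16.9 FPKM in morulae with VCD and 13.8, 9.99, 12.6 and 17.8 FPKM with PBS, values that overlapped with those of 2-cell embryos, but it was called higher with PBS without morula replicate 2 (log2 fold change 0.42, limma adjusted p = 0.0372). Kif24, which acts at centrioles and restrains cilium building, fell with means of 0.572 ± 0.327 FPKM in morulae with VCD and 0.583 ± 0.151 with PBS, against 1.90 ± 0.113 FPKM in 2-cell embryos with VCD and 2.29 ± 0.275 with PBS.

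Among the remaining transport motors, Kifc3, a minus-end motor found at cell junctions, rose. It had 4.71, 3.28, 5.44 and 7.09 FPKM in morulae with VCD and 4.15, 4.68, 2.54 and 5.61 FPKM with PBS, against 0.977, 0.327, 0.331 and 0.650 FPKM in 2-cell embryos with VCD and 0.589, 0.496, 0.512 and 0.302 FPKM with PBS. The stages did not overlap, with log2 fold changes of 1.95 with VCD and 1.80 with PBS. Kif21a, a motor that slows microtubule growth at the cell cortex, had 0.510, 1.18, 1.27 and 0.461 FPKM in morulae with VCD and 1.04, 1.34, 0.786 and 1.55 FPKM with PBS, against 3.49, 5.24, 5.12 and 3.85 FPKM in 2-cell embryos with VCD and 5.05, 4.76, 4.70 and 6.58 FPKM with PBS. It fell by 1.56 with VCD and by 1.53 with PBS on the log2 scale. Of the kinesin-3 motors, which carry vesicles, Kif1b had 3.38, 3.24, 5.42 and 4.15 FPKM in morulae with VCD and 4.08, 4.15, 3.33 and 4.04 FPKM with PBS, against 7.64, 7.60, 7.75 and 8.65 FPKM in 2-cell embryos with VCD and 6.46, 6.84, 8.42 and 7.84 FPKM with PBS. Kif16b had 2.21, 5.37, 4.15 and 3.39 FPKM in morulae with VCD and 5.27, 3.26, 3.77 and 3.57 FPKM with PBS, against 6.98, 7.84, 8.62 and 7.81 FPKM in 2-cell embryos with VCD and 6.73, 7.20, 6.74 and 7.46 FPKM with PBS. Both fell without overlap, whereas their relative Kif13b rose, with means of 1.77 ± 0.284 FPKM in morulae with VCD and 2.35 ± 0.607 with PBS, against 0.705 ± 0.235 FPKM in 2-cell embryos with VCD and 0.489 ± 0.120 with PBS. Of the cilium genes, Kif27 fell, with 0.701, 0.0971, 0.703 and 0.698 FPKM in morulae with VCD and 0.256, 0.442, 0.843 and 1.74 FPKM with PBS, against 1.56, 1.38, 3.97 and 1.96 FPKM in 2-cell embryos with VCD and 4.84, 3.63, 2.60 and 3.55 FPKM with PBS, and Kif9, a motor of cilia and sperm tails, was not called in either agent. Kif9 was called lower under median-of-ratios scaling and with array weights in both agents, in TPM with VCD, and without morula replicate 2 with VCD or morula replicate 4 with PBS. The summed level of 6 markers of oviduct epithelium, a ciliated tissue, was 0.933 to 19.1 FPKM in morulae with VCD and 1.64 to 3.45 with PBS, against 4.53 to 9.64 FPKM in 2-cell embryos with VCD and 4.23 to 9.48 with PBS. Of these markers, Rsph1 was the highest in 2-cell embryos, and Foxj1, a regulator of motile cilia, was at 0 in every morula library and every VCD 2-cell library. The part of such cells in these values was not tested.

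**Figure D4:**
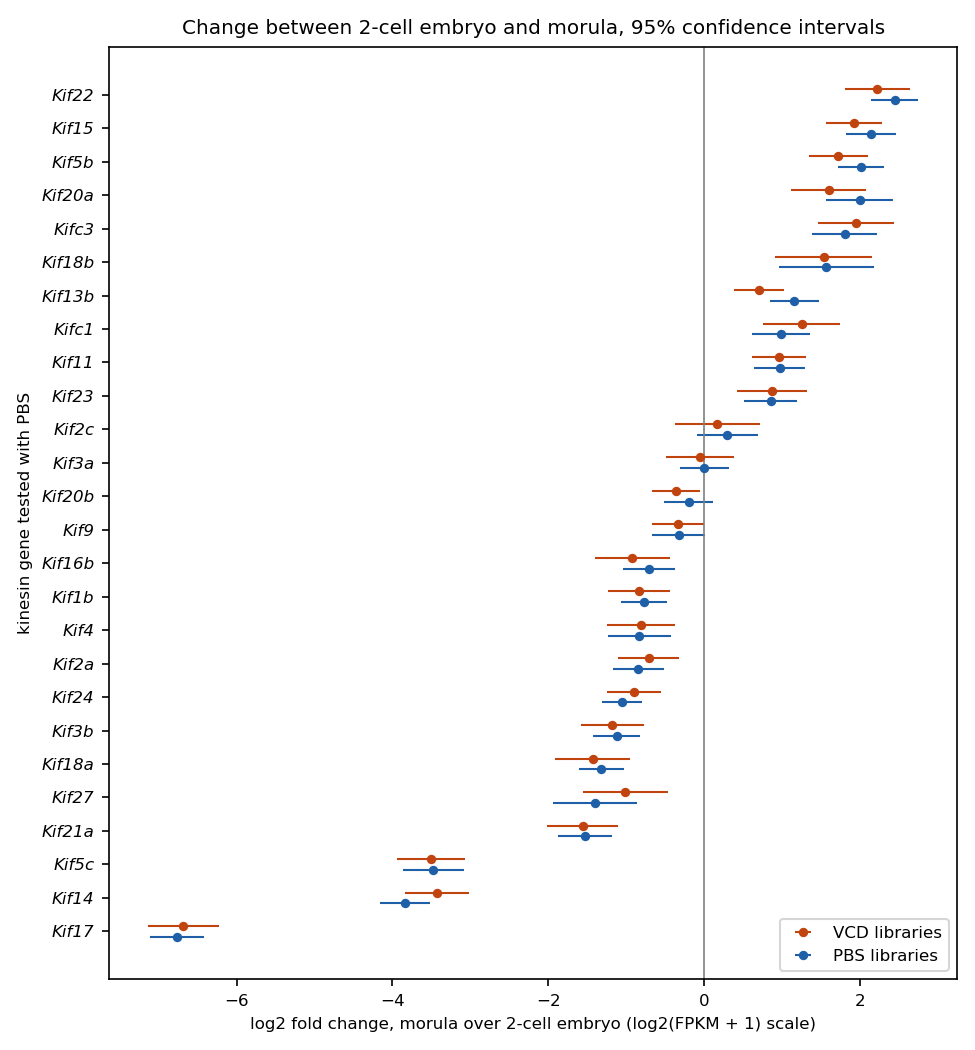
Log2 fold changes of the 26 tested kinesins, morula over 2-cell embryo, with 95% confidence intervals, in VCD libraries (orange, upper point) and PBS libraries (blue, lower point). Kif17 lies at -6.68 with VCD and -6.76 with PBS, Kif22 at 2.22 with VCD and 2.44 with PBS, and the paired intervals of each gene overlap.

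The bases before the start of 5 of these genes are shown so that genes that rose (Kif22, Kif15 and Kif18b) and genes that fell (Kif5c and Kif21a) can be set beside each other. They are from RefSeq on GRCm38.p6, which has windows of 250 bases before to 50 after a gene's start for 32 of the 41 kinesins, and these are the 3 largest rises and 2 largest falls with PBS on the log2(FPKM + 1) scale among the 28 genes whose RefSeq start lies within 500 bases of the 5′ end of the GENCODE gene. Kif5b, Kif20a, Kif13b and Kifc3 have no window here. Capitals mark TTTGAA or its reverse complement TTCAAA, the core of the cell cycle homology region found in promoters of division genes, and CCAAT or its reverse complement ATTGG; the 2 words do not overlap in these windows. Each sequence is written 5′ to 3′ along the gene's strand: Kif22 at chr7:127042421-127042670 on the minus strand, Kif15 at chr9:122950831-122951080 on the plus strand, Kif18b at chr11:102925125-102925374 on the minus strand, Kif5c at chr2:49619036-49619285 on the plus strand and Kif21a at chr15:91049952-91050201 on the minus strand.
Kif22: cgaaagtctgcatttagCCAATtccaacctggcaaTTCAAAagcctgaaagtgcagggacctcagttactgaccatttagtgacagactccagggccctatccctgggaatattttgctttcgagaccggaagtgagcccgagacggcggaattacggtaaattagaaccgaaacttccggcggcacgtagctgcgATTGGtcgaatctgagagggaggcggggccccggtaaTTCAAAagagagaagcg
Kif15: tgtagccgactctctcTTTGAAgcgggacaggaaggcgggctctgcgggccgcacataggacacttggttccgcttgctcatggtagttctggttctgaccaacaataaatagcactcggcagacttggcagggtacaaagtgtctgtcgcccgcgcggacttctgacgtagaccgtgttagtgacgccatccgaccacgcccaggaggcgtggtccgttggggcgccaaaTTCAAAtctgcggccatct
Kif18b: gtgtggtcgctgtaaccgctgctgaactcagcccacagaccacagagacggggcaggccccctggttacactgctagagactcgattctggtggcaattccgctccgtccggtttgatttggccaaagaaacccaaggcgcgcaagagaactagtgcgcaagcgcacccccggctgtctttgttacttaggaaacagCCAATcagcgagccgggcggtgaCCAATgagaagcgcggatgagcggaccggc
Kif5c: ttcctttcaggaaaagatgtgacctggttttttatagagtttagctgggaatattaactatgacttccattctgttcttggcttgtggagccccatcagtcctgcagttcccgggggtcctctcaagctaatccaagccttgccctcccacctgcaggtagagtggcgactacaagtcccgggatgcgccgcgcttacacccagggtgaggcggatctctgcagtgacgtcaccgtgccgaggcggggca
Kif21a: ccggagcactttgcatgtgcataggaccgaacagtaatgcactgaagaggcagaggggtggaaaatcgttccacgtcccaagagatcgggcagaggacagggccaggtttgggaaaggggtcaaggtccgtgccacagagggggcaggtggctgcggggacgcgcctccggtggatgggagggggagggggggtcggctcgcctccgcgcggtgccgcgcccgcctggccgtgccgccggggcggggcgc
Kif22 holds each word in a pair of places, with TTCAAA starting 17 bases before the start and ATTGG 54 bases before it, and Kif15 has TTCAAA 19 bases before its start. Kif18b has CCAAT at 53 and 30 bases before the start and TTTGAA at base 4 after it, outside the letters printed. Neither word is in the bases printed for Kif5c and Kif21a.

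Over the full windows of 300 bases on both strands, TTTGAA was in 6 of the 6 kinesins with a window that were higher in PBS morulae (Kif11, Kif15, Kif18b, Kif22, Kif23 and Kifc1) and in 1 of the 9 that were lower and had a RefSeq start near the annotated one, Kif4. It was also in 2 of the 4 that were tested and not called, Kif20b and Kif2c. The RefSeq start of Kif2c lies 3867 bases inside the GENCODE gene. Among all kinesins with a window 13 of 32 hold it (40.6%), against 17.9% of all 32851 RefSeq promoter windows. Of the 28 kinesins with a near start, 10 hold it (35.7%). CCAAT was in 5 of the 6 and in 4 of the 9, against 37.4% of all windows, and both words were in 5 of the 6 and in 1 of the 9, against 6.95% of all windows. The RefSeq starts of Kif14, Kif17 and Kif27, also lower, lie 1505, 11816 and 4175 bases inside the GENCODE gene and are not counted among the 9. The windows of Kif14 and Kif27 hold both words, so with these 3 genes TTTGAA was in 3 of 12 lower kinesins and CCAAT in 6 of 12. These counts describe letters in the reference and not binding.

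Partners of the kinesins were read from 3 lists. Of 16 spindle and midzone partners, all tested, 6 were higher and 5 lower in PBS morulae, and 4 were higher and 5 lower in VCD morulae. That is 11 of 16 called with PBS and 9 of 16 with VCD, where 87.7% and 84.8% of all genes were called. Aurka, a kinase of spindle poles, averaged 449.7 ± 84.2 FPKM in morulae with VCD and 479 ± 24.6 with PBS, against 102 ± 19.7 FPKM in 2-cell embryos with VCD and 105 ± 9.76 with PBS (SD, n = 4). Aurkb, the midzone and centromere kinase that Kif20a carries, averaged 55.5 ± 5.41 FPKM in morulae with VCD and 56.0 ± 10.7 with PBS, against 13.99 ± 1.31 FPKM in 2-cell embryos with VCD and 13.5 ± 1.98 with PBS. Both kinases rose in either agent. Cenpe, a kinetochore kinesin whose symbol keeps it out of the members, had a log2 fold change of 0.05 with VCD and 0.13 with PBS and was not called.

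Of 12 cargo adaptors and kinesin light chains, 6 were tested, and 2 were higher and 2 lower in either agent, where 87.7% of all genes were called with PBS and 84.8% with VCD. Klc4, a kinesin-1 light chain, averaged 14.6 ± 2.89 FPKM in morulae with VCD and 13.6 ± 3.42 with PBS, against 2.85 ± 1.199 FPKM in 2-cell embryos with VCD and 2.197 ± 0.660 with PBS, and rose. Rhot1, which links mitochondria to kinesin-1, averaged 19.4 ± 1.04 FPKM in morulae with VCD and 17.9 ± 3.03 with PBS, against 27.6 ± 2.59 FPKM in 2-cell embryos with VCD and 29.3 ± 2.36 with PBS, and fell. Of 10 genes of dynein and dynactin, the opposing minus-end motor and its activator, 9 were tested with PBS and 8 with VCD, and 6 were higher and 1 lower in either agent, where 42.7% of all genes were higher and 45.0% lower with PBS and 41.0% and 43.9% with VCD. Dync1i2, an intermediate chain, was the lower one, at 6.84 ± 1.34 FPKM in morulae with VCD and 7.91 ± 0.759 with PBS, against 114 ± 12.96 FPKM in 2-cell embryos with VCD and 122 ± 4.61 with PBS. Dync1li2, a light intermediate chain, rose, at 10.2 ± 2.40 FPKM in morulae with VCD and 10.7 ± 2.42 with PBS, against 0.396 ± 0.163 FPKM in 2-cell embryos with VCD and 0.527 ± 0.144 with PBS. The median log2 fold change with PBS was -0.21 for the tested spindle and midzone partners, -0.07 for the adaptors and 1.43 for dynein and dynactin, beside -0.08 for all genes.

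The study's main contrast, VCD against PBS within a stage, gave no kinesin past the threshold. In MII oocytes 22 kinesins were tested and 0 were called, where 0.0115% of 8715 genes were. In 2-cell embryos 22 were tested and 0 called, where 0.00% of 11369 genes were, and in morulae 23 were tested and 0 called, where 0.0100% of 9959 genes were. At an unadjusted p under 0.05 limma gave 1, 2 and 0 kinesins in MII oocytes, 2-cell embryos and morulae. Over all genes it gave 245 of 8715, 391 of 11369 and 311 of 9959, in the same order. On recovered reads limma-voom also called 0 kinesins in each. With so few calls among all genes, a count of 0 kinesins is no result about kinesins either. On the log2(FPKM + 1) scale, the 95% interval of the fold change lay within 2-fold for 21 of 22 kinesins in MII oocytes, all but Kifc3, for 21 of 22 in 2-cell embryos, all but Kif27, and for 23 of 23 in morulae. These intervals are for single genes, without adjustment, and for genes near 1 FPKM they do not bound the fold change of FPKM itself: for Kif14 in morulae the log2 fold change was 0.34 on this scale and 0.56 with a pseudocount of 0.1. The median log2 fold change of the tested kinesins was 0.06 in MII oocytes, 0.08 in 2-cell embryos and 0.03 in morulae, beside 0.01, 0.01 and -0.01 for all genes.

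In MII oocytes the smallest unadjusted p belonged to Kif5b. It had 13.6, 12.5, 12.2, 14.8 and 12.5 FPKM with VCD, against 10.6, 10.999, 11.1 and 11.9 FPKM with PBS. The groups did not overlap, and the log2 fold change was 0.22 (SE 0.08, adjusted p = 0.999, limma). Kif5b was the only 1 of the 22 tested kinesins without overlap. The share of all genes without overlap was not counted, so this is no result about kinesins. Kif14 had 19.0, 21.5, 25.4, 25.9 and 24.0 FPKM with VCD, against 25.96, 28.7, 23.8 and 25.9 FPKM with PBS, a log2 fold change of -0.17 (SE 0.10). Kifc3 had 1.13, 1.08, 1.76, 5.07 and 1.30 FPKM with VCD, against 1.08, 1.07, 1.31 and 0.918 FPKM with PBS, and 1 VCD library stood above the other 8. Its log2 fold change of 0.42 became 0.14 without VCD replicate 4.

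In 2-cell embryos the 3 kinesins of smallest p were Kif27, Kif20a and Kif22. Kif27 had 1.56, 1.38, 3.97 and 1.96 FPKM with VCD, against 4.84, 3.63, 2.60 and 3.55 FPKM with PBS, which overlapped through VCD replicate 3. Kif20a had 40.7, 40.9, 34.4 and 26.2 FPKM with VCD, against 29.2, 29.6, 24.5 and 25.01 FPKM with PBS, where 3 of 4 VCD libraries lay above all PBS libraries. Their log2 fold changes were -0.58 (SE 0.24) for Kif27 and 0.36 (SE 0.16) for Kif20a, with adjusted p of 0.999 for both in limma. Kif22 had 12.9, 16.1, 13.1 and 11.1 FPKM with VCD, against 11.1, 9.32, 11.1 and 11.9 FPKM with PBS, a log2 fold change of 0.26 (SE 0.14). The groups did not overlap for 2 of the 22 tested kinesins, Kif24 and Kif3b, which are outside the rule for naming genes. Their log2 fold changes were -0.18 for Kif24 and 0.10 for Kif3b. How many of all genes did not overlap was not counted, so this is no result about kinesins.

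In morulae the groups overlapped for every kinesin tested, and how many of all genes overlapped was not counted. Kif14 averaged 1.65 ± 0.460 FPKM with VCD and 1.08 ± 0.314 with PBS, a log2 fold change of 0.34 (SE 0.21). Kifc1 averaged 3.002 ± 1.15 FPKM with VCD and 2.03 ± 0.285 with PBS, a log2 fold change of 0.36 (SE 0.23). Kif13b averaged 1.77 ± 0.284 FPKM with VCD and 2.35 ± 0.607 with PBS, a log2 fold change of -0.26 (SE 0.20). None of the 3 came near the threshold, with an adjusted p of 0.99997 each in limma.

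The interaction, the VCD effect in morulae minus that in 2-cell embryos, was called for 0 of 28 kinesins, against 0.00% of 14144 genes. With limma-voom the count was 0 as well. At an unadjusted p under 0.05 limma gave 1 of the 28 kinesins and 502 of the 14144 genes. The kinesin was Kif13b, at -0.45 on the log2 scale (SE 0.21, adjusted p = 0.999, limma). Next were Kif14 at 0.41 (SE 0.22) and Kif5b at -0.29 (SE 0.20). Neither the meiosis list nor the mitosis list held a call in any VCD comparison: in MII oocytes 9 and 4 of their members were tested, in 2-cell embryos 8 and 5, and in morulae 8 and 6.

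**Figure D5:**
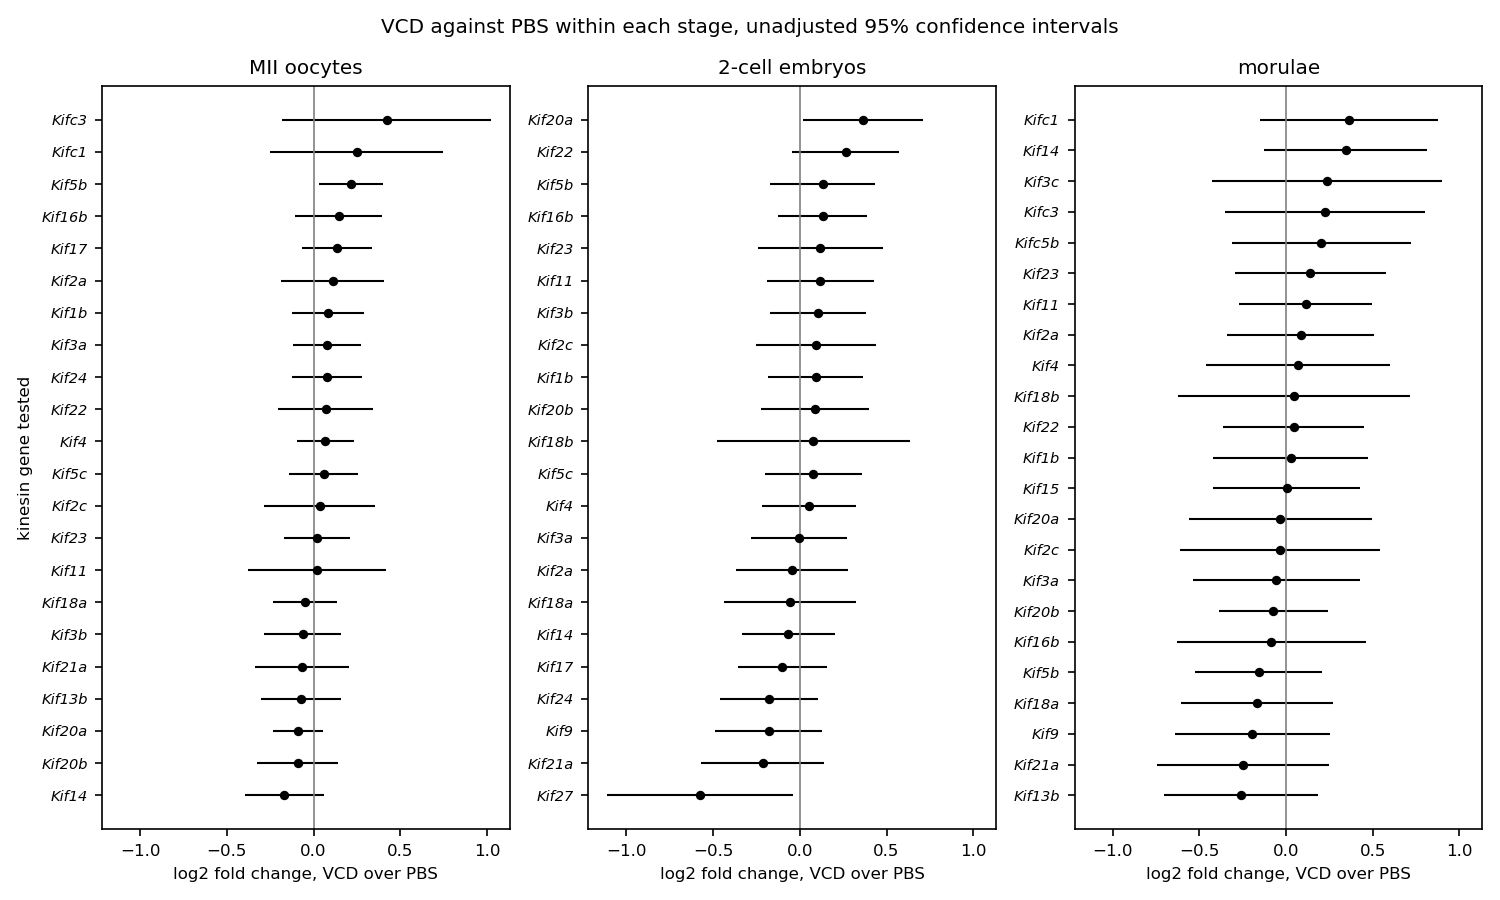
Log2 fold changes, VCD over PBS, of the kinesins tested in MII oocytes, 2-cell embryos and morulae, each with its unadjusted 95% confidence interval. The estimates run from -0.17 to 0.42 in MII oocytes, from -0.58 to 0.36 in 2-cell embryos and from -0.26 to 0.36 in morulae, and the interval leaves out 0 for Kif5b in MII oocytes and for Kif20a and Kif27 in 2-cell embryos.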

How the data were processed

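RNA was measured by Smart-seq2 in 25 mouse libraries of 6 groups. The authors deposited FPKM, in 2 tables made separately for oocytes (25158 genes) and embryos (34228 genes). TopHat2 2.0.12 and Bowtie2 2.2.3 are among the tools, and galGal4 is the build named, per the submitters' processing notes, although the identifiers are mouse Ensembl ones; the counting tool and annotation were not stated. Symbols were matched for 25073 and 34065 genes. No deposited sample column was left unused. The title of PBS morula replicate 3 mixes the naming of the PBS and treated samples, and it was grouped by its agent label, PBS.

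FPKM times exon length (GENCODE M21, GRCm38) gave whole reads, within 0.01, for 90.6% to 93.4% of values under 200 reads, which set the depth; these reads served the depth and limma-voom only, and without molecular identifiers they are not independent molecules. Python 3.11.15 and R 4.3.3 were used. Since the values were FPKM, limma 3.58.1 with a variance trend was fitted to log2(FPKM + 1) over all genes that reached 1 FPKM in 4 libraries of a comparison or more, with Benjamini-Hochberg adjustment, after a test on simulated data. No replicate block was used. Alternatives were pseudocounts of 0.1 and 10, no filter or 5 FPKM, TPM or median-of-ratios scaling, array weights, limma-voom, a replicate block and leaving out each library.

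The members, lists and tests were chosen with earlier results of these data known. Per-library values were given for members averaging 5 FPKM or more in a group and for a panel of 8 (Kif2c, Kif4, Kif11, Kif18a, Kif20a, Kif22, Kif23 and Kifc1). Named besides were the 6 largest rises and 6 largest falls in PBS, the 3 smallest p in each VCD comparison and 2 genes of each partner list; other members were named for their role after their values were seen. Shared sequence was counted in words of 50 bases, and overlapping exons in either direction, since Smart-seq2 does not mark strand.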

Additional observations from a re-analysis of the deposited data

Results flagged for a closer look

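Of 112 groups of 4 or 5 libraries over 21 kinesins, 6 held 1 library far from the rest of its group by Dixon's ratio, where chance marks about 5%. Kifc3 had 5.07 FPKM in MII oocytes with VCD replicate 4, against 1.08 to 1.76 FPKM in the other VCD oocytes, and without that library its log2 fold change of VCD over PBS was 0.14 in place of 0.42. Kif4 had 18.1 FPKM in PBS morula replicate 4, against 10.5 to 11.6 FPKM in the other PBS morulae, and without it the log2 fold change of morula over 2-cell embryo was -1.0002 in place of -0.83. Kif11 had 16.7 FPKM in VCD morula replicate 4, against 12.7 to 13.2 FPKM in the others. Kif1b had 8.65 FPKM in VCD 2-cell replicate 4, against 7.60 to 7.75 FPKM, and 3.33 FPKM in PBS morula replicate 3, against 4.04 to 4.15 FPKM. Kif21a had 7.34 FPKM in MII oocytes with PBS replicate 4, against 4.83 to 5.04 FPKM.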

How the results depend on the processing

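The 8 counts of called kinesins stayed within 1.5 times the reported count under all 145 alternatives. The counts for VCD against PBS and for the interaction were 0 under each of them. Morula against 2-cell counts ranged, with 1 library left out, from 7 to 10 higher and 9 to 13 lower with PBS, and from 7 to 10 higher and 9 to 14 lower with VCD. Under the other settings they ranged from 7 to 11 higher and 8 to 15 lower with PBS, and from 7 to 12 higher and 9 to 16 lower with VCD. Genes above 1 FPKM in 1 stage only, Kif17 among them, with 1 library of that stage left out no longer reached 4 libraries and were not tested. With the replicate block the counts were 10 higher and 12 lower in either agent, and 0 for VCD against PBS. For each gene the mean of its group was taken off log2(FPKM + 1). The deviations left in same-numbered VCD and PBS libraries correlated from -0.33 to 0.38. The best match of a VCD library carried its own number for 1 and 4 in morulae and for 1 in 2-cell embryos. The labels do not say whether the numbers pair the libraries, and these values do not settle it. Of 937 alternatives for 56 fold changes of named kinesins, 919 kept direction and side of the threshold. Kif2c turned to -0.038 with PBS and -0.12 with VCD under median-of-ratios scaling, and with PBS it was called without morula replicate 2 (0.42, limma adjusted p = 0.0372). Kif3a with PBS was -0.044 in TPM, -0.32 under median-of-ratios scaling, -0.049 with array weights and -0.060 to 0.060 with 1 library left out, and with VCD it was -0.17 to 0.064 with 1 library left out. Kif20b with VCD lost its call under the block (adjusted p = 0.0874). The causes were not tested. Genes near 1 FPKM are limited by depth, as 1 read in 1 kb is worth 0.0476 to 0.0663 FPKM.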
